A study of Homo sapiens with 8 samples.

Results

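The interferon regulatory factor (IRF) genes IRF1, IRF2, IRF3, IRF4, IRF5, IRF7, IRF8 and IRF9 were followed through bulk RNA-seq of 2 human acute myeloid leukemia (AML) lines after knockdown (KD) of PRMT9, an arginine methyltransferase. The members were taken by gene symbol from the Molm13 table and by the same gene identifier from the THP1 table, and all 8 were found among the 57722 genes that both tables list. Molm13 and THP1 are established monocytic AML lines. In each line, cells carrying a control hairpin (shCtrl, labelled wild type) were set against cells carrying a hairpin to PRMT9 (shPRMT9), and every group received doxycycline (Dox), which switches the hairpins on, so the controls were exposed to the drug too. There were 2 libraries per group and 8 in all, from polyA-selected RNA. Libraries numbered 1 and 2 in a group were treated as replicates, although the study's PRMT9 hairpins carry these numbers as well, and no label says whether the libraries of a group came from separate cultures, so p-values measure only the spread between these samples.

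IRFs are transcription factors that share an amino-terminal DNA-binding domain and recognise interferon-stimulated response elements. IRF3 and IRF7 are phosphorylated downstream of nucleic acid sensors and turn on type I interferon (IFN) genes, whereas IRF9 joins STAT2 in ISGF3, the complex that carries the signal of the type I IFN receptor to the genome. IRF1 activates and IRF2 largely opposes overlapping sets of IFN-responsive promoters, IRF5 acts downstream of Toll-like receptors in myeloid cells, and IRF8 and IRF4 act in blood cells together with partner factors, IRF8 being a main driver of monocyte development.

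Library totals ran from 18720950 to 27356870 counts. PRMT9 itself fell in both lines, from 332 and 289 counts to 41 and 56 in Molm13 (log2 fold change -2.68, SE 0.135, edgeR adjusted p = 1.2e-21) and from 317 and 352 counts to 60 and 68 in THP1 (-2.29, SE 0.131, edgeR adjusted p = 3.5e-14). Of 10 monocytic and myeloid markers, 9 were above 1 CPM (counts-per-million, a count scaled to its library's normalised total) in 3 of the 4 groups and all 10 in THP1 shPRMT9, while T cell, erythroid and plasmacytoid dendritic cell markers summed to at most 1.76 CPM in any library. PAX5 was the single B cell marker above 1 CPM, with 866 and 829 counts in Molm13 shCtrl, 741 and 821 in shPRMT9, 64 and 86 in THP1 shCtrl and 298 and 276 in shPRMT9. Among MLL-fusion target genes, MEIS1 had 1452 to 1811 counts in Molm13 and 4 to 9 in the libraries labelled THP1, whose names also carry the letters OCI. The other 3 of the 4 listed targets did not share this loss and were above 1 CPM in every group. Between the controls (THP1 minus Molm13), their log2 differences were -0.22 (HOXA9), -0.92 (HOXA10) and 0.50 (PBX3). Of 5 HOXB genes, summed levels were 0.196 to 0.318 CPM in Molm13 and 12.6 to 14.6 CPM in the libraries labelled THP1. Whether those libraries are THP1 is therefore in doubt, and THP1 below means the line as labelled. The lines were fitted separately, and every KD result is given for each line alone.

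IFN signals reach DNA through short elements that can be looked for in promoters. RefSeq promoter windows (GRCh38.p14) were found for 5 of the 8 members, as 9 windows. IRF2, IRF3 and IRF7 had no entry. In the 250 bases before each start site, 3 motifs were searched on both strands: TTCNNNGAA (the GAS element bound by STAT dimers), a pair of GAAA half-sites with NN between them (the core of the ISRE bound by ISGF3) and GGAA followed by NN and GAAA (the composite site of an ETS factor with IRF4 or IRF8). The last 2 differ in 1 letter, and a stretch can match only 1 of them. Among 35116 RefSeq promoters, the same 250 bases held a GAS match in 6.57%, an ISRE core match in 3.02% and a composite match in 2.41%. Matches were present in 3 of the 9 windows, and these are shown with the match in capitals, 5′ to 3′ along the gene's strand, because IRF9 and IRF1 are themselves IFN-responsive genes in textbook accounts and the IRF5 match is the single composite site found.
IRF9: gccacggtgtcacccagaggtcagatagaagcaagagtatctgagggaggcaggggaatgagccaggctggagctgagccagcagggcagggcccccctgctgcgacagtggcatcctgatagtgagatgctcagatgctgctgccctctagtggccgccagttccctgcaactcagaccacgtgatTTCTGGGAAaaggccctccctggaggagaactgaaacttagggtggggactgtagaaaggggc
IRF1: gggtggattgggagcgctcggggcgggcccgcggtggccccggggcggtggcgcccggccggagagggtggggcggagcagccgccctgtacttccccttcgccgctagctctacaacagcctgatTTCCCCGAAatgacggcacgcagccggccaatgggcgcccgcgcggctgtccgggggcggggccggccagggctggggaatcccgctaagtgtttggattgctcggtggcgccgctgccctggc
IRF5: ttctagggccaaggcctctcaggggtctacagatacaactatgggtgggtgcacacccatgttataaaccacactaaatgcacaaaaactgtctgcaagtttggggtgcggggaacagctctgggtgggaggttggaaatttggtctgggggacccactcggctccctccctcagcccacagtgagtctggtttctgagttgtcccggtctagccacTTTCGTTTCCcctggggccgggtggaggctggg
The IRF9 window lies at chr14:24161015-24161264 on the plus strand, and its GAS match TTCTGGGAA spans positions -63 to -55 before the start. The IRF1 window lies at chr5:132490774-132491023 on the minus strand, with the GAS match TTCCCCGAA at -124 to -116. One of the 4 IRF5 windows, at chr7:128940420-128940669 on the plus strand, held a composite match that reads TTTCGTTTCC on the gene's strand, at -33 to -24. The other 3 IRF5 windows, both IRF8 windows and the IRF4 window held none of these letters. The IRF8 windows, at chr16:85902580-85902829 and chr16:85902765-85903014, lie inside the gene as annotated here (chr16:85898803-85922609). The sequence before the first annotated base of IRF8 was therefore not searched. The 4 IRF5 windows also lie inside their gene. The IRF9 window runs into its gene from chr14:24161053, and its GAS match lies inside the gene as annotated here. Sequence before the first annotated base of IRF5, and before the IRF9 window, was not searched either. A match is a description of sequence and does not show binding.

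Across the 8 members, IRF7 and IRF9 were upregulated by PRMT9 KD in both lines and IRF2 in THP1, and no member was downregulated beyond the 1.5-fold limit. A gene was called when edgeR's quasi-likelihood test gave an adjusted p (Benjamini-Hochberg, over all genes tested) below 0.05, the fold change was above 1.5 or below 1/1.5, and the level exceeded 1 RPKM (CPM divided by exon length in kilobases) in at least 1 library of the comparison. In Molm13, 2 of the 7 members tested were called, where 22.8% of all 16446 genes were called (11.4% higher and 11.3% lower). In THP1, 3 of 8 were called, all higher, where 6.22% of all 16294 genes were called (3.83% higher and 2.39% lower). The median log2 fold change of the members tested was 0.23 in Molm13 and 0.56 in THP1, against medians of 0.00047 and -0.00063 over all genes tested. The THP1 median includes IRF4 (1.20, at most 0.178 RPKM), which was not tested in Molm13, so the medians of the lines cover different members. Without the fold limit, 6 members in Molm13 and 6 in THP1 passed, where 60% and 33.7% of all genes did.

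**Figure D1:**
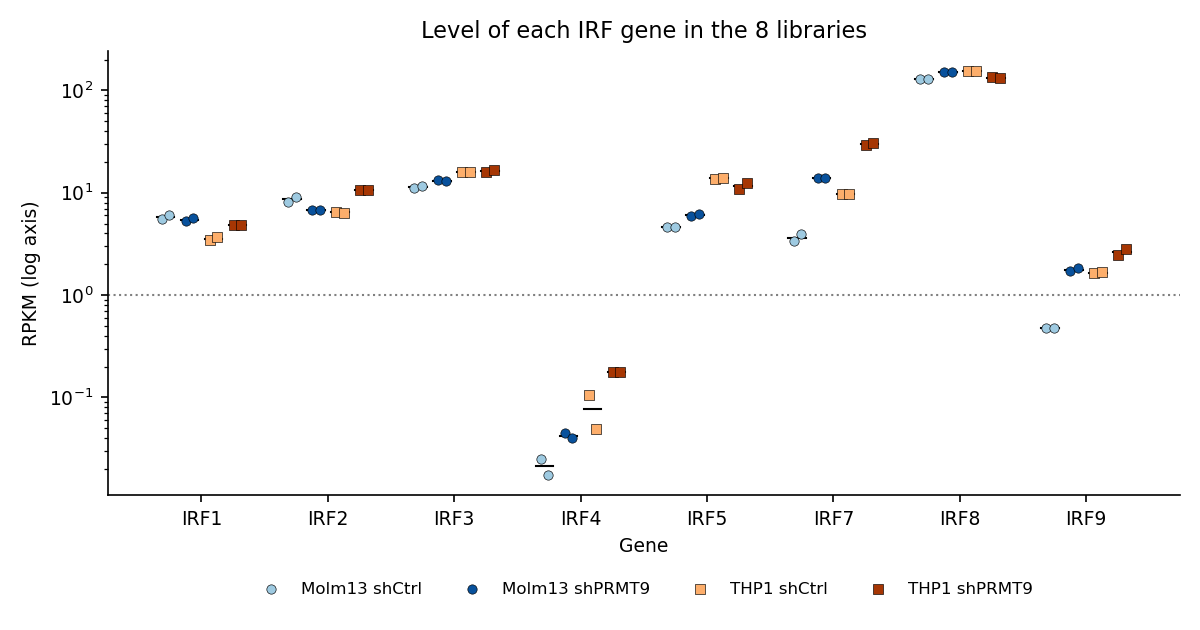
RPKM (log axis) of each member in each of the 8 libraries, with points for libraries, short bars for the means of 2 libraries and a dotted line at 1 RPKM. IRF8 lies between 129 and 155 RPKM in all 8 libraries, IRF7 moves from 3.65 to 14.01 and from 9.78 to 30.0 on average with shPRMT9, and IRF4 stays below 0.18.

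Markers of cell identity also moved with KD. The summed level of the 10 monocytic and myeloid markers was 1198 CPM in both Molm13 shCtrl libraries and 1780 to 1790 in shPRMT9, and 2458 to 2474 in THP1 shCtrl and 3739 to 3888 in shPRMT9. Such a sum gives most weight to markers with many counts. The lysozyme gene LYZ had the highest RPKM of these markers, up to 573 in Molm13 and 1789 in THP1. Its log2 fold change was 0.66 and 0.71. By the rule used for the members, 6 of the 9 markers tested were higher and 0 lower in Molm13, where 11.4% of all genes were higher and 11.3% lower. In THP1, 7 of 10 were higher and 1 lower, where 3.83% of all genes were higher and 2.39% lower. CSF1R, the receptor for a macrophage growth factor, went from 307 and 280 counts to 1144 and 1297 in Molm13 and from 1752 and 1870 to 3445 and 3485 in THP1. MPO, a granule enzyme of myeloid precursors, went the other way, from 1236 and 1207 counts to 753 and 900 in Molm13 (log2 fold change -0.56, not called) and from 211 and 188 to 108 and 104 in THP1 (-0.82, called). The B cell factor PAX5 rose in THP1 (2.03, SE 0.134, edgeR adjusted p = 7.4e-13) and had -0.12 in Molm13, with a difference between the lines of 2.16. In THP1 the summed B cell markers were 4.29 to 4.82 CPM in shCtrl and 12.7 to 14.4 in shPRMT9, of which PAX5 made up 2.49 to 3.11 and 11.2 to 11.9. In bulk RNA, more cells of a type and more RNA per cell cannot be told apart, and the part of these shifts in the IRF values was not tested. Plasmacytoid dendritic cell markers, for a cell type known for high IRF7, summed to at most 0.752 CPM in any library.

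IRF9 is the DNA-binding subunit of ISGF3. Its gene (ENSG00000213928) lies at chr14:24161053-24166565 on the plus strand of hg38. In Molm13 it had 37 and 35 counts in shCtrl and 124 and 147 in shPRMT9, a 3.75-fold upregulation (log2 fold change 1.91, SE 0.179, edgeR adjusted p = 8.3e-13). THP1 started higher, with 159 and 177 counts in shCtrl against 235 and 266 in shPRMT9, and the upregulation was 1.59-fold (0.67, SE 0.115, edgeR adjusted p = 2.7e-05). Normalised levels did not overlap between the groups in either line, a property shared by 81.9% of all genes tested in Molm13 and 66% in THP1. On the per-length scale, IRF9 moved from 0.475 to 1.78 RPKM in Molm13 and from 1.66 to 2.66 RPKM in THP1, so the Molm13 KD cells reached about the level of the THP1 controls. The THP1 call rested on 1 library: without THP1 shPRMT9 replicate 2 the log2 fold change was 0.57 and under the fold limit. The effect was smaller in THP1 than in Molm13 by 1.22 on the log2 scale (SE 0.222, edgeR adjusted p = 1.7e-06), and in this test of a difference between the lines 3 of 8 members were called where 17.8% of all 19288 genes were (9.01% with the larger value in THP1, as for 1 member, and 8.78% with the smaller, as for 2).

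The IRF9 values have a limit set by annotation. Of the exon bases of IRF9, 1838 (48.4%) are shared on the same strand with ENSG00000259529, a protein-coding annotation that runs through the IRF9 locus. That gene had 10 and 14 counts in Molm13 shCtrl, 33 and 51 in shPRMT9, 48 and 60 in THP1 shCtrl and 89 and 98 in shPRMT9. Depending on the counting mode, which is not given in the sources used here, reads from the shared bases may be missing from both genes. With the counts of both genes summed, an alternative chosen after seeing the data, the log2 fold change was 1.88 in Molm13 and 0.73 in THP1, and each call was as before.

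The partners of IRF9 did not all follow the same pattern. Of 5 genes of the type I IFN receptor and ISGF3, 2 were upregulated in Molm13, where 11.4% of all genes were, and 1 in THP1, where 3.83% were. The list's median log2 fold change was 0.42 in Molm13 and 0.28 in THP1. STAT2, the ISGF3 subunit that carries the activation domain, was upregulated in both lines, from 1151 and 1083 counts to 3341 and 3681 in Molm13 (log2 fold change 1.65) and from 1975 and 2111 to 4517 and 4654 in THP1 (1.26). IFNAR1, a receptor chain, was called in Molm13 (0.62) and had 0.28 in THP1. The other receptor chain IFNAR2 had 0.03 and 0.28, and the receptor-bound kinases JAK1 and TYK2 had 0.42 and 0.18 in Molm13 and 0.15 and 0.39 in THP1, none of them called.

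**Figure D2:**
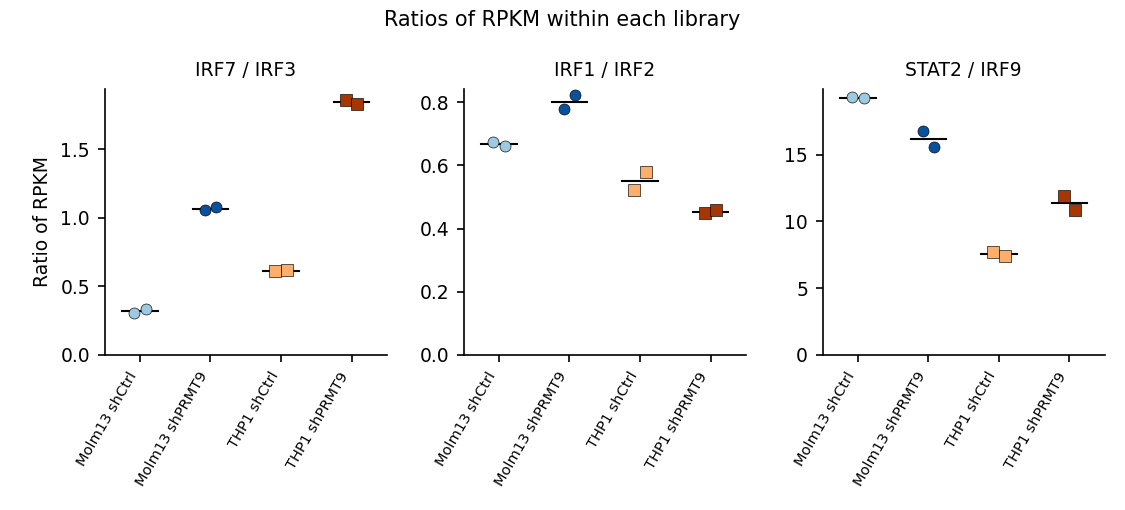
Ratio of RPKM between pairs of genes within each library (vertical axes from 0), with points for the 2 libraries of a group and bars for their mean. IRF7/IRF3 is higher with shPRMT9 in both lines, while IRF1/IRF2 and STAT2/IRF9 move in opposite directions in Molm13 and THP1.

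As a description of the same counts, the per-length level of STAT2 relative to IRF9 went from 19.3 ± 0.0726 (SD, n = 2) to 16.1 ± 0.836 in Molm13 and from 7.56 ± 0.217 to 11.4 ± 0.757 in THP1. IRF9 had the lower RPKM of the pair in all 8 libraries.

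IRF7, the inducible factor that amplifies type I IFN production, had the largest log2 fold change of the members in each line, though in Molm13 it exceeded that of IRF9 by less than the SE of either. The gene (ENSG00000185507) lies at chr11:612553-615999 on the minus strand. It had 181 and 202 counts in Molm13 shCtrl and 692 and 788 in shPRMT9, a 3.86-fold change (log2 fold change 1.95, SE 0.0800, edgeR adjusted p = 6.6e-25). Counts in THP1 were 659 and 711 in shCtrl and 1932 and 1980 in shPRMT9, a 3.05-fold change (1.61, SE 0.0547, edgeR adjusted p = 2.0e-19). Ordered by log2 fold change from the top, IRF7 stood at place 344 of 16446 genes in Molm13 and 243 of 16294 in THP1. The difference between the lines (THP1 minus Molm13, here and for the members that follow) was -0.33 (SE 0.105, edgeR adjusted p = 0.0069), below the fold limit. All shPRMT9 libraries lay above all shCtrl libraries of their line.

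IRF3, the constitutive counterpart of IRF7 (ENSG00000126456, chr19:49659569-49665875, minus strand), moved little. Counts were 858 and 868 in Molm13 shCtrl against 946 and 1058 in shPRMT9 (log2 fold change 0.22, SE 0.0531, edgeR adjusted p = 4.4e-04, not called). THP1 had 1558 and 1661 in shCtrl and 1500 and 1563 in shPRMT9 (0.02, SE 0.0495, edgeR adjusted p = 0.76), and the groups overlapped there. IRF3 shares 734 exon bases (19.3% of its own) with BCL2L12 on the opposite strand, and the strand setting of the counting is not given in the sources used here, so reads from these bases may belong to either gene. BCL2L12 had -0.21 in Molm13 (edgeR adjusted p = 0.023) and 0.03 in THP1, and was not called. IRF7 relative to IRF3, per length, went from 0.320 ± 0.0222 (SD, n = 2) to 1.07 ± 0.0136 in Molm13 and from 0.614 ± 0.00518 to 1.84 ± 0.0216 in THP1, so that IRF7 RPKM exceeded IRF3 RPKM only in the KD libraries. In Molm13 shPRMT9 this order rests on exon lengths of 2628 bases for IRF7 and 3794 for IRF3. By mean CPM, IRF7 was below IRF3 there (36.8 against 49.9) and above it in THP1 shPRMT9 (78.7 against 61.6).

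IRF5, which drives inflammatory cytokine genes downstream of MyD88 (ENSG00000128604, chr7:128937612-128950035, plus strand), had opposite signs in the lines. In Molm13 it had 415 and 394 counts in shCtrl and 490 and 579 in shPRMT9 (log2 fold change 0.40, SE 0.0712, edgeR adjusted p = 3.4e-06). In THP1 it had 1541 and 1679 in shCtrl and 1197 and 1340 in shPRMT9 (-0.25, SE 0.0556, edgeR adjusted p = 6.7e-04). Neither passed the fold limit, and in neither line did the groups overlap. The difference between the lines did pass, at -0.64 (SE 0.0927, edgeR adjusted p = 5.8e-09), but without THP1 shPRMT9 replicate 1 it was -0.58 and under the fold limit.

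Among 14 kinases and adaptors that activate IRF3, IRF5 and IRF7, 4 were upregulated, 1 downregulated and 9 not called in Molm13, and 3 upregulated and 11 not called in THP1. The called genes were 35.7% of the list in Molm13, against 22.8% of all genes tested, and 21.4% in THP1, against 6.22%. The medians of the list were 0.22 and 0.32. IKBKE, a kinase of IRF3 and IRF7, and TICAM1, the adaptor of TLR3, were called in both lines, at log2 fold changes of 0.63 and 0.67 for IKBKE and 0.74 and 0.60 for TICAM1 in Molm13 and THP1. TMEM173 (STING, the adaptor of the cyclic dinucleotide pathway) was called in Molm13 at 0.63 and had -0.06 in THP1, and the difference between the lines was -0.68 (SE 0.0487, edgeR adjusted p = 2.0e-22). IRAK1, a kinase downstream of MyD88, fell by 1.19 on the log2 scale in Molm13 and had -0.14 in THP1. MYD88 had 0.36 in Molm13 and was called in THP1 at 1.09. CXorf21 (TASL), the adaptor that links SLC15A4 to IRF5, was called in Molm13 at 0.59 and had 0.33 in THP1. TBK1, the main kinase of IRF3, had -0.25 and 0.31, and MB21D1 (cGAS) had -0.01 and 0.16, none of them called. The genes called in a single line are named here after their values were seen.

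IRF1 and IRF2, the activator and the repressor of overlapping promoters, behaved differently from each other and between the lines. IRF1 (ENSG00000125347, chr5:132481609-132490798, minus strand) had 873 and 920 counts in Molm13 shCtrl and 772 and 933 in shPRMT9 (log2 fold change -0.07, SE 0.0567, edgeR adjusted p = 0.25), and these groups overlapped. Its THP1 counts were 685 and 789 in shCtrl and 940 and 939 in shPRMT9, without overlap (0.45, SE 0.0623, edgeR adjusted p = 1.4e-06), a change under the fold limit. The difference between the lines was 0.53 (SE 0.0873, edgeR adjusted p = 1.6e-07), also under the limit.

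IRF2 (ENSG00000168310, chr4:184387713-184474580, minus strand) had 517 and 555 counts in Molm13 shCtrl and 397 and 453 in shPRMT9 (log2 fold change -0.34, SE 0.0726, edgeR adjusted p = 8.3e-05, not called). In THP1 it rose 1.65-fold, from 524 and 545 counts to 838 and 816 (0.72, SE 0.0675, edgeR adjusted p = 9.4e-10). Groups did not overlap in either line. The difference of 1.07 between the lines (SE 0.104, edgeR adjusted p = 1.0e-15) was called. Per length, IRF1 relative to IRF2 went from 0.668 ± 0.00874 (SD, n = 2) to 0.800 ± 0.0325 in Molm13 and from 0.550 ± 0.0397 to 0.454 ± 0.00820 in THP1, so IRF2 had the higher RPKM in all 8 libraries. This order rests on exon lengths of 7799 bases for IRF1 and 3116 for IRF2. By mean CPM, IRF1 was the higher in every group: 44.9 against 26.8 and 42.3 against 21.1 in Molm13 shCtrl and shPRMT9. In THP1 shCtrl and shPRMT9 the values were 27.6 against 20.1 and 37.8 against 33.3.

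IRF8, the lineage factor of monocytes (ENSG00000140968, chr16:85898803-85922609, plus strand), was the most abundant member by far. Molm13 had 13590 and 13172 counts in shCtrl and 14689 and 16688 in shPRMT9 (log2 fold change 0.23, SE 0.0230, edgeR adjusted p = 5.6e-12). THP1 had 20448 and 22106 in shCtrl and 17310 and 16747 in shPRMT9 (-0.23, SE 0.0284, edgeR adjusted p = 2.2e-07). These are changes of 1.17-fold in opposite directions, under the fold limit in each line, with no overlap between groups. The difference between the lines was -0.44 (SE 0.0363, edgeR adjusted p = 2.4e-19), again under the limit. At these counts the standard errors were the smallest of the family, so small changes reached a low adjusted p.

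IRF4, a lymphoid and plasma cell factor close in sequence to IRF8 (ENSG00000137265, chr6:391739-411447, plus strand), was near the detection limit. Molm13 libraries had 2 to 5 counts and the gene was not tested. THP1 libraries had 16 and 8 counts in shCtrl and 26 in each shPRMT9 library (log2 fold change 1.20, SE 0.395, edgeR adjusted p = 0.017), with a level of at most 0.178 RPKM, below the level required for a call. The difference between the lines could not be estimated with any precision (0.24, SE 1.04, edgeR adjusted p = 0.94).

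The DNA-binding partners of IRF8 and IRF4 gave 1 downregulated gene of 5 tested in Molm13 (BATF3, -1.48) and 1 upregulated gene of 6 tested in THP1 (BATF2, 2.74), both named after their values were seen. SPI1, which encodes the ETS factor that recruits IRF8 and IRF4 to composite sites, had 0.47 in Molm13 and 0.42 in THP1 and was not called. Of 7 co-repressors and modifiers of IRFs, TRIM21, an IFN-inducible ubiquitin ligase that acts on several IRFs, was upregulated in both lines (1.12 and 0.91) and 6 were not called in each line. Beside the counts of both lists, 11.4% of all genes tested were called higher and 11.3% lower in Molm13. In THP1 these shares were 3.83% and 2.39%.

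**Figure D3:**
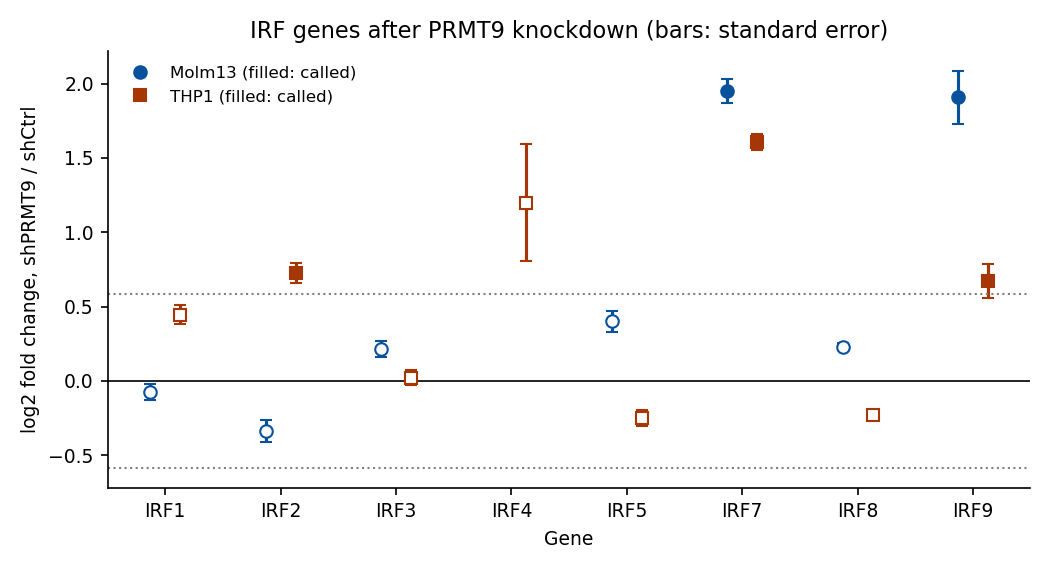
Log2 fold change of shPRMT9 over shCtrl (vertical axis, bars for the standard error) of each member in Molm13 (circles) and THP1 (squares), filled where the gene was called, with dotted lines at the 1.5-fold limit. IRF7 and IRF9 are filled in both lines and IRF2 in THP1, IRF4 was not tested in Molm13, and IRF2, IRF5 and IRF8 have opposite signs in the lines.

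Ordered by level per length, the family had a steep hierarchy. IRF8, IRF9 and IRF4 kept their places in all 4 groups, and the other members changed places. Mean RPKM in Molm13 shCtrl ran from IRF8 (129.7) through IRF3 (11.4), IRF2 (8.61), IRF1 (5.76), IRF5 (4.62) and IRF7 (3.65) to IRF9 (0.475) and IRF4 (0.0211). In Molm13 shPRMT9 the order was IRF8 (151), IRF7 (14.01), IRF3 (13.1), IRF2 (6.79), IRF5 (6.07), IRF1 (5.43), IRF9 (1.78) and IRF4 (0.0423). By RPKM under KD, IRF7 thus came directly after IRF8 in place of IRF3, while IRF1 and IRF5 changed places. By mean CPM, which leaves exon length out, IRF3 (49.9) and IRF1 (42.3) stayed above IRF7 (36.8) in Molm13 shPRMT9. By mean CPM, IRF1 was also above IRF5 in both Molm13 groups, so that pair kept its order. The values were 44.9 against 20.2 in shCtrl and 42.3 against 26.6 in shPRMT9. In THP1 shCtrl the order was IRF8 (155), IRF3 (15.9), IRF5 (13.8), IRF7 (9.78), IRF2 (6.44), IRF1 (3.54), IRF9 (1.66) and IRF4 (0.0774), and in THP1 shPRMT9 it was IRF8 (133), IRF7 (30.0), IRF3 (16.2), IRF5 (11.7), IRF2 (10.7), IRF1 (4.85), IRF9 (2.66) and IRF4 (0.177). Here too IRF7 came directly after IRF8 in the KD libraries and after IRF5 in the controls. In all 4 groups the 2 libraries of each member lay apart from those of the next member in the order, although only 2 libraries stand behind each level.

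**Figure D4:**
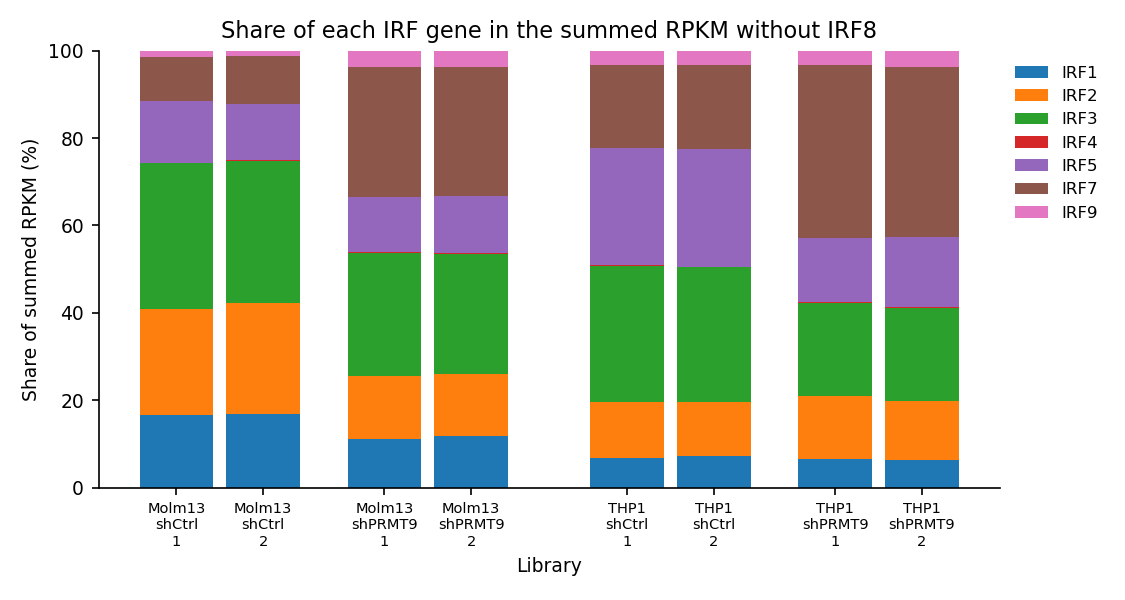
Share (%) of each member other than IRF8 in the summed RPKM of those 7 members, 1 stacked bar per library. IRF7 takes 10.2% and 11.0% in the Molm13 shCtrl libraries and 29.8% and 29.5% in shPRMT9, and 19.1% in each THP1 shCtrl library and 39.5% and 39.1% in shPRMT9.

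The summed RPKM of the 8 members was 162 and 166 in the Molm13 shCtrl libraries and 197 and 199.5 in shPRMT9, whereas THP1 had 206 and 206 in shCtrl and 208 and 209.5 in shPRMT9. IRF8 made up 79.0% ± 0.764 (SD, n = 2) of the sum in Molm13 shCtrl and 76.2% ± 0.136 in shPRMT9. In THP1 its share was 75.1% ± 0.0431 in shCtrl and 63.5% ± 1.13 in shPRMT9. IRF7 took up 2.22% ± 0.200 and 7.06% ± 0.000988 in Molm13 and 4.75% ± 0.00404 and 14.3% ± 0.328 in THP1. With IRF8 left out of the sum, the share of IRF7 was 10.6% ± 0.566 and 29.6% ± 0.173 in Molm13 and 19.1% ± 0.0168 and 39.3% ± 0.324 in THP1. Shares are descriptions of the same levels and were not tested.

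The control libraries of the lines differed in 4 of 8 members, where 42.6% of all 19288 genes differed by the same rule (16.9% higher and 25.7% lower in THP1). Without the fold limit 7 members passed, where 65.6% of all genes did. IRF9 was 3.49-fold higher in THP1 (log2 difference 1.80, SE 0.176, edgeR adjusted p = 2.9e-16). IRF5 was 2.99-fold higher (1.58, SE 0.0644, edgeR adjusted p = 2.9e-40), and IRF7 was 2.68-fold higher (1.42, SE 0.0844, edgeR adjusted p = 1.0e-28). IRF1 was the single member called lower in THP1 (-0.70, SE 0.0626, edgeR adjusted p = 4.6e-18). The remaining members had differences of -0.42 (IRF2), 0.48 (IRF3), 0.25 (IRF8) and 1.81 (IRF4, below 1 RPKM). Each line was deposited in its own table, and no label says whether the lines were prepared together, so the line and any separate handling cannot be told apart.

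Type I, II and III IFN genes, which include the type I genes that IRF3 and IRF7 activate, had few counts. Of 21 listed, 15 had no count in any of the 8 libraries and none was tested. IFNB1, the IFN-β gene, had 0 and 1 counts in Molm13 shCtrl, 3 and 2 in shPRMT9, 1 in each THP1 shCtrl library and 10 and 8 in THP1 shPRMT9. IFNL1 had 1 and 6 counts in THP1 shPRMT9 and 0 in the other 6 libraries. Both were named after their values were seen, and no test was made at these counts.

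**Figure D5:**
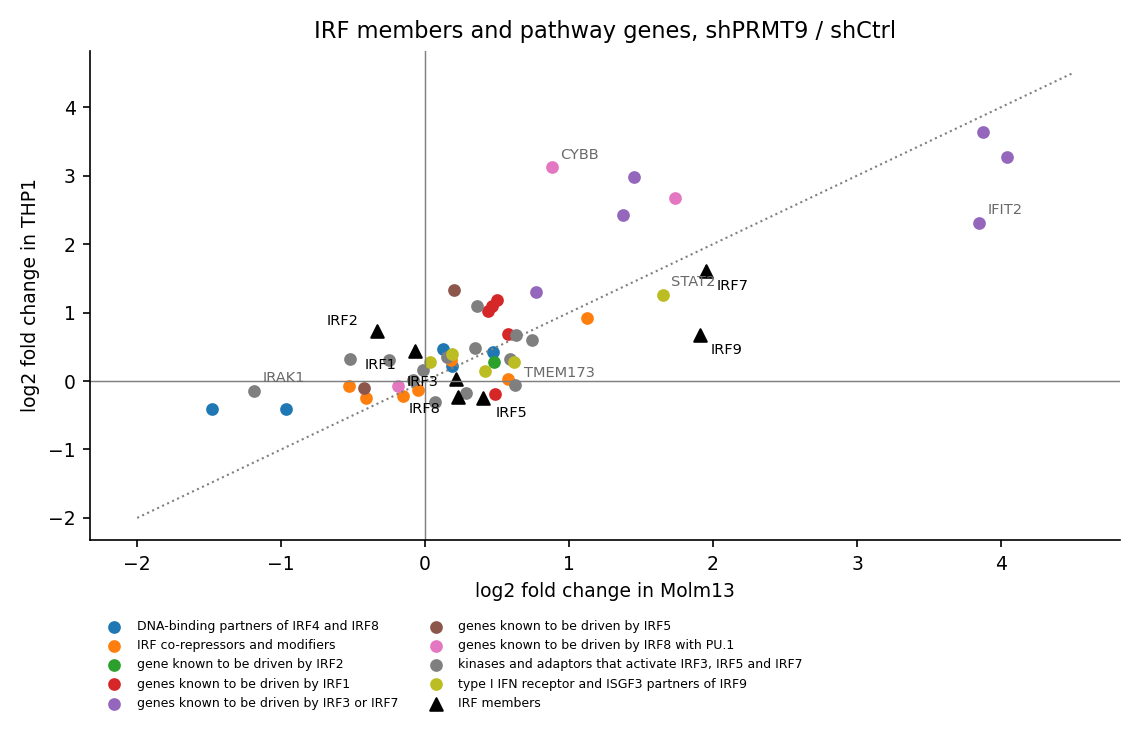
Log2 fold change of shPRMT9 over shCtrl in Molm13 (horizontal) against THP1 (vertical) for the members (triangles) and the pathway genes tested in both lines (circles, colored by list), with a dotted line of equal change. IRF7 at 1.95 and 1.61 and STAT2 at 1.65 and 1.26 lie near that line, CYBB at 0.88 and 3.12 above it, and IRF9 at 1.91 and 0.67 and IFIT2 at 3.85 and 2.31 below it.

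Genes known to be driven by the members showed rises in both lines for IRF3 and IRF7. The lists were chosen with earlier results of these data known, so their counts are descriptions and not independent support. Of the pathway genes, 14 of 48 tested were higher and 2 lower in Molm13, and 19 of 51 were higher and 0 lower in THP1 by the rule used for the members, with 11 called higher in both lines and 0 in opposite directions. Called genes made up 33.3% of the pathway genes tested in Molm13, against 22.8% of all genes (11.4% higher and 11.3% lower), and 37.3% in THP1, against 6.22% (3.83% higher and 2.39% lower). The median over these genes was 0.39 in Molm13 and 0.35 in THP1. All 6 genes listed for IRF3 or IRF7 were upregulated in both lines, with medians of 2.65 and 2.71. In Molm13 and THP1 respectively, the log2 fold change was 4.04 and 3.28 for IFIT1 and 3.85 and 2.31 for IFIT2, which encode antiviral RNA-binding proteins. The chemokine CXCL10 had 3.88 and 3.64, and the chemokine CCL5 had 0.77 and 1.30. ISG15, a ubiquitin-like modifier, had 1.38 and 2.43, and RSAD2, the antiviral protein viperin, had 1.45 and 2.99. These genes are also targets of ISGF3, so their change does not separate one member from another.

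Of the genes listed for IRF1, 0 of 5 tested were called in Molm13 (median 0.48), where 22.8% of all genes were. All 5 were higher at an edgeR adjusted p below 0.05 but under the fold limit. Their values were 0.44 (TAP1), 0.50 (PSMB9), 0.48 (CIITA), 0.57 (CASP1) and 0.46 (B2M). In THP1, 4 of 7 were upregulated (median 1.03), where 3.83% of all genes were. These were the antigen presentation genes TAP1 (1.03), PSMB9 (1.18) and B2M (1.10) and the caspase gene CASP1 (0.68), named after their values were seen. The effect of KD was larger in THP1 by 0.60 for TAP1, 0.69 for PSMB9 and 0.65 for B2M, each called in the test of the difference, whereas CASP1 differed by 0.12 (edgeR adjusted p = 0.27). CIITA went the other way, with -0.19 in THP1 and a difference of -0.66 (edgeR adjusted p = 0.032). The level of CIITA was at most 0.405 RPKM over the 8 libraries, below that required for a call. Of 3 genes listed for IRF8 with its ETS partner, IL1B, an inflammatory cytokine, was upregulated in both lines (1.74 and 2.68). CYBB, a subunit of the phagocyte oxidase, was upregulated in THP1 (3.12) and had 0.88 in Molm13 below 1 RPKM, with a difference of 2.26 (SE 0.238, edgeR adjusted p = 5.4e-14), and KLF4 was not called. Of 2 tested genes listed for IRF5, TNF was upregulated in THP1 (1.32) and had 0.20 in Molm13. GSDMD, the pore-forming gene listed for IRF2, had 0.48 and 0.28 and was not called.

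The genes with the most similar profile to each member were found by the root-mean-square difference of log2 CPM, centred over the 8 libraries, among 15258 genes with a mean of at least 20 counts. IRF7, whose own profile spanned 3.16 log2 units, was closest to ITGAX (0.166), which encodes the integrin CD11c, followed by PARP10 (0.171) and C19orf66 (0.186), both IFN-responsive. IRF9 spanned 2.53 and was closest to IQSEC2 (0.0745), GPR157 (0.163) and THEMIS2 (0.167). IRF5 spanned 1.59 and was closest to KIFC2 (0.0571), SLC35E2B (0.0692) and RHOU (0.0718). With IRF4 left aside, these 3 members had the widest profiles, and a small distance for them means a gene that followed both the line and the KD.

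The members that moved less had close neighbours of many kinds. IRF1 (span 0.81) was closest to FSD1L (0.0515), STOX2 (0.0606) and DGKH (0.0711), and IRF2 (span 0.76) had FAM83G (0.0764) and FOSL1 (0.101) among its nearest. IRF3 (span 0.59) was closest to KDM5C (0.0289), SPTBN1 (0.0321) and ACD (0.0357). IRF8 (span 0.26) was closest to RBM39 (0.0339), TOP1MT (0.0360) and RPS15A (0.0384). IRF4, at few counts, had distant neighbours, CTD-2313J17.5 (0.213), FBXO6 (0.222) and NFKBIE (0.240). These are descriptions over 8 libraries that share the line and the KD, and no function is read from them.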

How the data were processed

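PolyA RNA-seq was measured in Molm13 and THP1 cells with Dox-induced shCtrl or shPRMT9. Per gene, the authors deposited raw counts of reads (whole numbers, not normalized) in 1 table per line. Submitters' processing notes name TopHat2 2.0.8, HTSeq 0.11.2, edgeR 3.30.3 and hg38. The annotation release, counting mode and strand setting are not given in the sources used here, but the coordinates and exon lengths of all 8 members equal those of GENCODE 29. Totals were 18720950 to 21241742 counts in Molm13 and 25127517 to 27356870 in THP1.

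All later steps used R 4.3.3 and edgeR 4.0.16. Each line was fitted alone (TMM, filterByExpr, quasi-likelihood test, Benjamini-Hochberg adjustment over all genes tested), since the study compared shPRMT9 with shCtrl within lines. Differences between lines came from a fit of all 8 libraries. A call required the FDR to be under 0.05, a fold of more than 1.5 in either direction and at least 1 library with an RPKM over 1. The SE was taken as |log2 fold change| over the root of the F statistic. Printed CPM and RPKM used TMM over the 8 libraries and the deposited exon lengths, so the RPKM depends on those lengths. The tests were tested on simulated data, with counts drawn independently for each library. This cannot show how they behave if the libraries of a group are not separate cultures. With 2 libraries against 2, an exact permutation test of a single gene cannot go below p = 0.333 (two-sided), so none is given. DESeq2 1.42.0, other normalizations, no filter, other limits, a replicate block, a common fit and leaving out each library were tried as alternatives.

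The members, the gene lists and the tests were chosen with earlier results of these data known. Named genes were the 8 members, PRMT9, genes overlapping a member, ISGF3 partners, list genes called in both lines and the 3 genes nearest to each member. Some genes of the rule and lists are not reported here and were left out of the list counts. Any further gene was picked with its values in view, apart from markers and genes listed as not called. Same-numbered libraries did not deviate together (r = -0.087 in Molm13 and -0.0146 in THP1), and replicates differed beyond counting noise (chi-square per gene 1.35 to 2.17).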

Additional observations from a re-analysis of the deposited data

Results flagged for a closer look

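The effect of PRMT9 KD on IRF2, IRF5 and IRF9 differed between the lines beyond the 1.5-fold limit in the fit of all 8 libraries. IRF2 had a difference (THP1 minus Molm13) of 1.07 on the log2 scale, from -0.34 in Molm13 and 0.72 in THP1. IRF5 had -0.64, from 0.40 and -0.25, and IRF9 had -1.22, from 1.91 and 0.67. For IRF2 and IRF5 the signs in the lines were opposite, while for IRF9 both were positive. With the overlapping gene ENSG00000259529 added to IRF9, the IRF9 difference was -1.14. The line and any separate handling cannot be told apart.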

How the results depend on the processing

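Other normalizations, no filter on low counts, DESeq2, a common fit and the summing of IRF9 with the overlapping gene ENSG00000259529 left each count of called members as reported: 2 in Molm13, 3 in THP1, 3 for the difference between lines and 4 between the controls. With the replicate number as a block the counts were 2, 3, 3 and 4 as well, although the numbers did not pair the libraries. Without the fold limit, 6 members passed in Molm13, where 60% of all genes did, and 6 in THP1, where 33.7% did. For the difference 7 passed, against 39.1% of all genes, and 7 between the controls, against 65.6%. With a fold above 2, 1 passed in THP1 (IRF7), and IRF2 and IRF9 were lost. That limit also left 2 for the difference, where IRF5 (-0.64) was lost, and 3 between the controls, where IRF1 (-0.70) was lost, while Molm13 kept 2. Over all genes, a fold above 2 left 796 higher and 506 lower of 16446 in Molm13, and 312 and 88 of 16294 in THP1. Of 19288 genes, it left 531 and 809 for the difference, and 2105 and 3788 between the controls. Leaving out each library gave 2 in Molm13, 2 to 3 in THP1, 2 to 3 for the difference and 4 between the controls. The log2 fold change of IRF3 in THP1 was -0.0041 with library size only and ran from -0.0183 (without THP1 shPRMT9 replicate 2) to 0.0631 when each library was left out. The IRF4 difference between lines ran from -0.26 (without THP1 shCtrl replicate 2) to 0.83 and was -0.07 without Molm13 shCtrl replicate 1. By CPM in place of RPKM, 26, 23, 26 and 27 of the 28 pairs of members kept their order in Molm13 shCtrl, Molm13 shPRMT9, THP1 shCtrl and THP1 shPRMT9. Counts of 2 to 26 limit IRF4, and 2 libraries per group limit every value.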
